A study of Mus musculus with 8 samples.

Results

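The genes described here encode the translation initiation factors of mouse 3T3-L1 adipocytes. They were taken as every row of the count table whose symbol starts with Eif followed by a digit from 1 to 6, leaving out the eIF2 kinases (symbols starting with Eif2ak), and this gave 56 of 18088 genes. Of the 56, 49 are coding genes and 7 are processed pseudogenes, which are copies of a spliced mRNA put back into the genome. Levels were not used to choose them, and all 56 passed the filter on low counts.

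The study silenced Erk3, an atypical MAP kinase encoded by Mapk6, in 3T3-L1 cells, a line of mouse preadipocytes that can be differentiated into fat-storing cells. Differentiated wild-type adipocytes were detached, transfected in suspension with a pool of siRNAs at 1.25 nM per square centimeter and used 48 h later. The siErk3 group (4 libraries of poly(A) RNA) received siRNA targeting Erk3, and the siNTC group (4 libraries) received a nontargeting siRNA. Both groups share the cell line, the differentiation and the transfection, and each group has 1 siRNA pool, so an effect of the pool and an effect of Erk3 cannot be told apart. The sources do not say whether the 4 libraries of a group come from separate cultures, so the spread behind each p-value may be technical.

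Initiation is the step of translation at which the small ribosomal subunit is loaded with the initiator tRNA, brought to the capped end of an mRNA and moved to the start codon. eIF2 carries the initiator tRNA and eIF2B recharges eIF2 with GTP. eIF3 is the large scaffold on the small subunit, and eIF4F joins the cap-binding protein eIF4E, the scaffold eIF4G and the helicase eIF4A. The 4E-BPs hold eIF4E away from eIF4G until mTORC1 phosphorylates them, which in fat cells happens under insulin.

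In the whole series, total counts lay between 9854522 and 9943572 per library. Mapk6 averaged 69.6 ± 4.8 CPM in siErk3 libraries and 579 ± 18.1 CPM in siNTC libraries (SD, n = 4 each; CPM is the count scaled to library size with TMM factors), with no overlap and a log2 fold change of -3.06 ± 0.06 (SE). edgeR's quasi-likelihood test called 4470 of 17972 genes higher and 4275 lower in siErk3 libraries at a Benjamini-Hochberg adjusted p under 0.05, and this scale, test and threshold hold for every call below. Adipocyte identity was checked with 11 marker genes, all of which were measured and all of which were lower in siErk3 libraries, with log2 fold changes of -1.71 to -0.13 and summed levels of 12473 to 12941 CPM in siErk3 libraries and 20466 to 22764 CPM in siNTC libraries. Of 6 macrophage and leukocyte markers 3 were in the table, with summed levels of 20.4 to 25.0 CPM in siErk3 libraries and 9.89 to 14.5 CPM in siNTC libraries, and Cd14 and Cd68 were higher and Csf1r was not called (6.75 CPM in siErk3 libraries and 7.12 CPM in siNTC libraries), while Ptprc, Adgre1 and Lyz2 were not among its genes. Of 5 endothelial markers only Pecam1 was in the table, at no more than 1.58 CPM. Of 6 preadipocyte and fibroblast markers 5 were measured, 4 of them lower and Ly6a higher (307 CPM in siErk3 libraries and 3.47 CPM in siNTC libraries). A list of 10 interferon-stimulated genes was made knowing that such genes moved with the group in these libraries, so their direction is no separate result. All 10 were higher, with summed levels of 3855 to 4063 CPM in siErk3 libraries and 106 to 115 CPM in siNTC libraries. The part of these shifts in the results on initiation factors was not tested, and fewer cells of a type and less RNA per cell cannot be told apart in such libraries.

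One pair of members is shown by sequence first, because its values depend on it. Eif4a1 (chromosome 11, 69666936 to 69672423, minus strand, mm10, GENCODE M21) encodes the main eIF4A helicase, and Eif4a-ps4 (chromosome 1, 60703932 to 60705149, plus strand) is a processed pseudogene. Over all 1218 bases of the pseudogene, 1217 are identical to the coding sequence of Eif4a1. The window of 61 bases around the base that differs is printed for both, 5′ to 3′ of the mRNA sense, with that base in capitals.
Eif4a1: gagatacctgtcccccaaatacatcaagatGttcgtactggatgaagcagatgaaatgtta
Eif4a-ps4: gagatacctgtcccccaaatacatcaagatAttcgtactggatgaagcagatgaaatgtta
Of the 50-base stretches of Eif4a-ps4, 95.7% also occur in Eif4a1. A read within those stretches carries nothing that tells the 2 genes apart. Of the 1119 stretches of the Eif4a1 transcript found in the pseudogene, 434 (38.8%) cross an exon junction, and such reads lie in 1 piece on the pseudogene but in several on the gene. The submitters' processing notes name Bowtie2, an aligner that does not open introns, and the counting program is not given in the sources used here.

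Promoters were examined for 4 short motifs, since RefSeq windows (build GRCm38.p6, 250 bases before to 50 after a start) were at hand for 38 of the 49 coding members. The E-box CACGTG, the letters bound by Myc and related factors, was present in 10 of the 38 (26.3%) and in 8.09% of all 27025 genes with a window. It was found in 4 members that were higher, 4 that were lower and 2 that were not called. GAAANNGAAA, the core of the interferon-stimulated response element, was present in 3 of 38 (7.90%; Eif2s1, Eif2s3x and Eif3a) and in 3.99% of all genes. TTCNNNGAA, the core of STAT sites, was present in 3 of 38 (7.90%) and in 9.55% of all genes, and the forkhead core TGTTTAC was present in none of the 38 and in 4.05% of all genes. Both strands were searched, and a gene counted when any of its windows held a match. The 27025 genes were not matched to the members in level or in number of windows, so the shares do not compare like genes. The 250 bases before a RefSeq start are printed, 5′ to 3′ on the plus strand, with matches in capitals. They are shown for Eif4e and Eif4g1, partners in eIF4F that moved in opposite directions, and for Eif5a2 and Eif2s1, which were both higher. Where a gene had several windows, the one with the most matches was printed. The windows of Eif4e, Eif4g1 and Eif2s1 lie inside the genes as GENCODE M21 places them, with gene starts at 138526179, 20668313 and 78861819.
Eif4e, chr3:138527018-138527267: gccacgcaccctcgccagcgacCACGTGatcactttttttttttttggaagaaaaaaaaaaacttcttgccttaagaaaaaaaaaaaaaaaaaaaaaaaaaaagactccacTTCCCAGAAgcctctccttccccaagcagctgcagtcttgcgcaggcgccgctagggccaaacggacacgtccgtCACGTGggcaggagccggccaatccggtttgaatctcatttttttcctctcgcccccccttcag
Eif4g1, chr16:20672477-20672726: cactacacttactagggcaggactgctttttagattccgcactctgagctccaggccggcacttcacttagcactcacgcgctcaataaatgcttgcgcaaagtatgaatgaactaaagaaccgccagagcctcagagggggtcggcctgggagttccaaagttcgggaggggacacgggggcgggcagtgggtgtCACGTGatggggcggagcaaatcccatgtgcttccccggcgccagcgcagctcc
Eif5a2, chr3:28781027-28781276: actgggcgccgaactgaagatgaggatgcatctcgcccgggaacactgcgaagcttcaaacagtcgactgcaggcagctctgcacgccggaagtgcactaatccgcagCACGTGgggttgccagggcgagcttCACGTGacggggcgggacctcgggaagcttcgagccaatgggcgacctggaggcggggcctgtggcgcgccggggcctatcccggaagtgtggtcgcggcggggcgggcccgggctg
Eif2s1, chr12:78861822-78862071: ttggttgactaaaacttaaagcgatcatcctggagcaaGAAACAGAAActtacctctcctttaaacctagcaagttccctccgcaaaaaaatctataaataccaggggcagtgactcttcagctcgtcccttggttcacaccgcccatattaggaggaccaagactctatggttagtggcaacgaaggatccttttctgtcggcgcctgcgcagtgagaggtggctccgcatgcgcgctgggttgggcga
Eif4e and Eif5a2 hold 2 E-boxes each in these stretches, the Eif4e window also holds a STAT core, and the Eif2s1 window holds the interferon core. No match of one motif overlaps a match of another in the 4 printed stretches. A match describes letters only.

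Across the members, silencing of Erk3 went with modest changes in both directions. Of the 56, 15 were higher, 14 were lower and 27 were not called. This is 51.8% called, beside 48.7% of all genes tested, with 26.8% higher beside 24.9% of all genes and 25.0% lower beside 23.8%, so the share of members called was near the background. The groups stood apart, with no shared range of CPM, for 27 members (48.2%), 13 higher and 14 lower, beside 43.2% of all genes (22.5% higher and 20.7% lower). The median log2 fold change was 0.04 over the members and 0.00 over all genes tested, and the median of the absolute values was 0.14 over the members and 0.25 over all genes. Changes beyond 1.5-fold were made by 5 members (8.93%) and by 17.3% of all genes, and beyond 2-fold by Eif4e3 alone among the members. All genes were not matched to the members in level. The lowest mean count of a member was 48.4, while the filter's minimum count was 10, so these sizes are not compared between genes of like level. The split of the calls depended on the scaling. With upper-quartile factors 8 members were higher and 19 were lower (3556 and 5394 of all genes), and with library sizes only 22 members were higher and 8 were lower (5849 and 3139 of all genes). The share of higher calls among called members was 51.7% with TMM, 29.6% with upper-quartile factors and 73.3% with library sizes only. The uncalled members lay between -0.15 and 0.13 in log2 fold change.

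**Figure D1:**
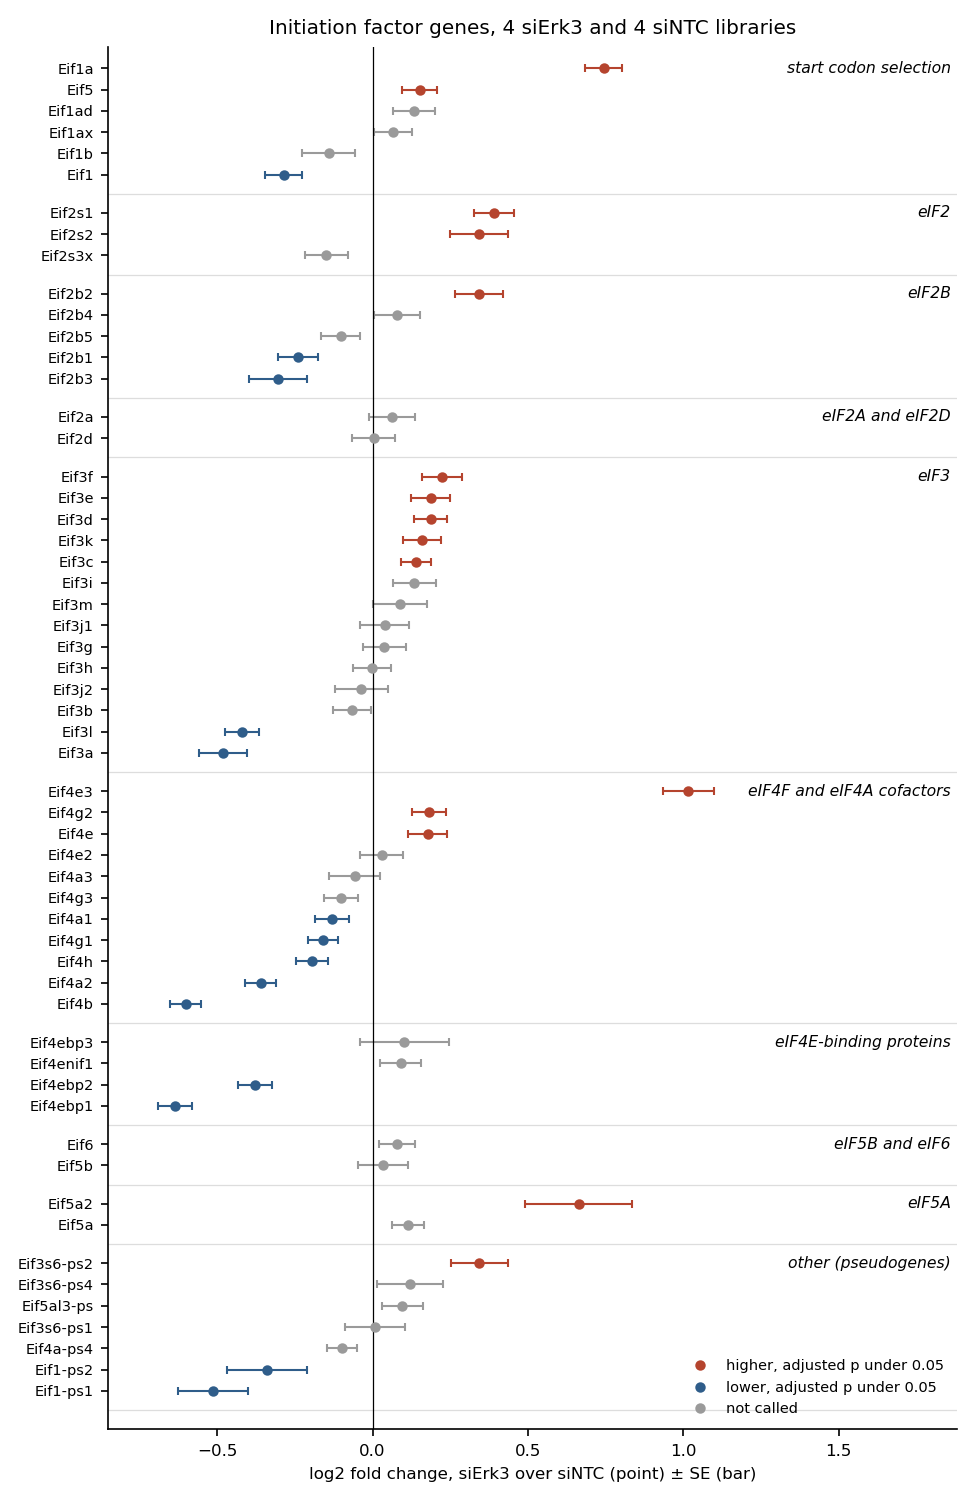
Log2 fold change of each member, siErk3 over siNTC (x axis, points), with its SE (bars), grouped by complex down the page and coloured by call. The values run from -0.64 for Eif4ebp1 to 1.02 for Eif4e3, and calls in both directions stand within 5 of the 10 groups.

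The eIF4E-binding proteins gave the most negative value among the coding members. Eif4ebp1 (chromosome 8, 27260329 to 27276674, plus strand), a 4E-BP that is abundant in fat tissue, had 293, 283, 291 and 286 CPM in siErk3 libraries, against 450.5, 401, 484 and 456 CPM in siNTC libraries. All 4 siErk3 libraries were lower than every siNTC library, and the fitted level was 0.643 times that of siNTC (log2 fold change -0.64 ± 0.06 SE, adjusted p = 1.51e-09, edgeR). Eif4ebp2 (chromosome 10, 61428491 to 61452661, minus strand), the second 4E-BP, had 156, 172, 175 and 161 CPM in siErk3 libraries, against 211, 204, 233 and 216 CPM in siNTC libraries. The groups again did not overlap, at 0.769 times the siNTC level (log2 fold change -0.38 ± 0.06, adjusted p = 4.73e-06). Eif4ebp3, the third 4E-BP (chromosome 18), was measured at 4.83, 5.63, 6.23 and 5.14 CPM in siErk3 libraries and at 5.10, 4.75, 4.70 and 5.79 CPM in siNTC libraries, values that overlap and were not called (log2 fold change 0.10 ± 0.14). Eif4enif1, which encodes the eIF4E transporter 4E-T, was not called either (0.09 ± 0.06). Per kilobase of merged exons, Eif4ebp1 had the highest mean level of all coding members, at 131 in siErk3 libraries and 204 CPM per kb in siNTC libraries, while Eif4ebp2 had 28.7 CPM per kb in siErk3 libraries and 37.3 CPM per kb in siNTC libraries.

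**Figure D2:**
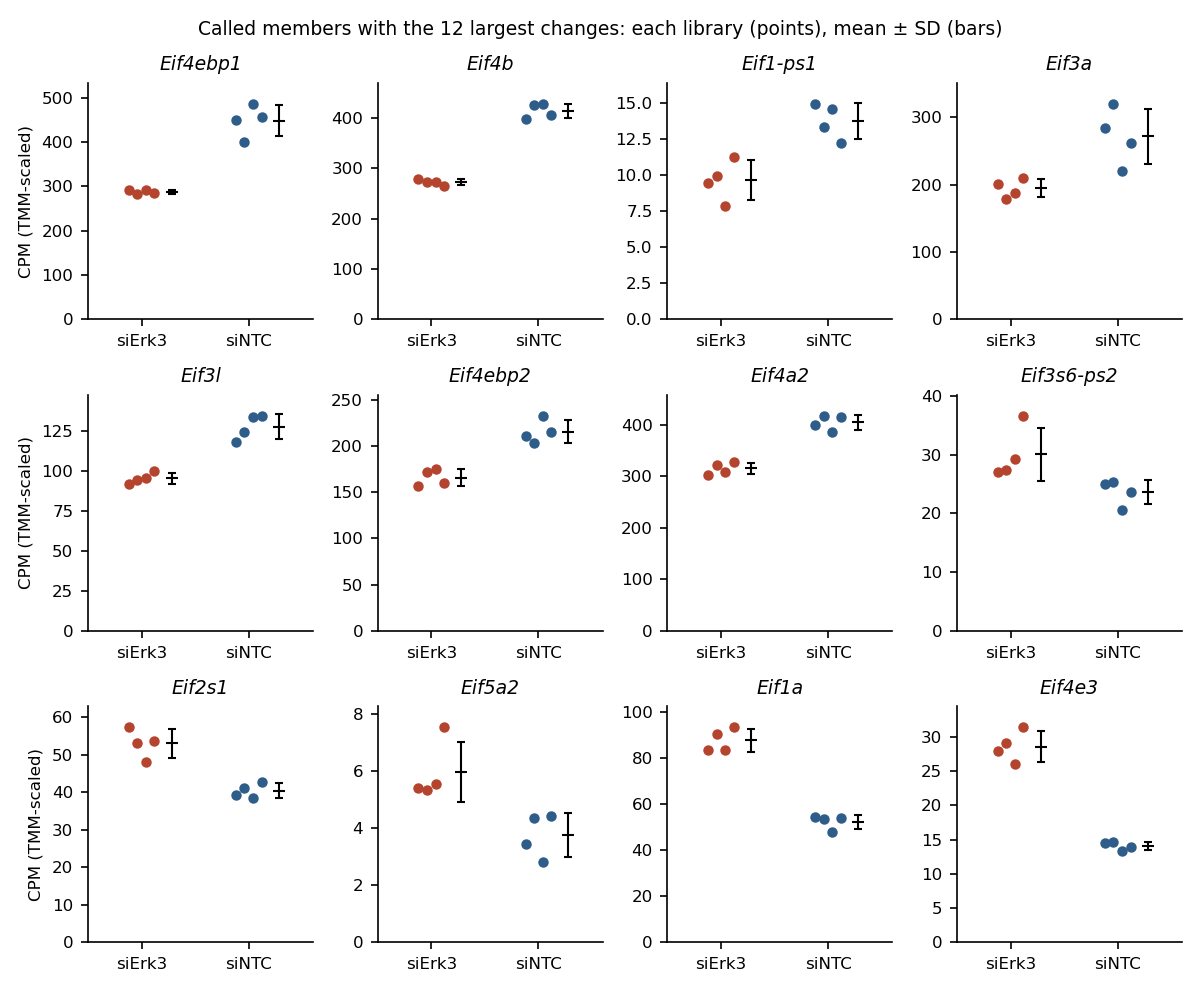
CPM (y axis, from 0) in each siErk3 and siNTC library (points) for the 12 called members with the largest absolute log2 fold changes, with mean and SD (bars, n = 4). The groups do not overlap for any of the 12, and the SD of Eif4ebp1 is 4.49 CPM in siErk3 libraries and 34.9 CPM in siNTC libraries.

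Of the 3 cap-binding proteins, Eif4e3 and Eif4e were higher in siErk3 libraries. Eif4e3 (chromosome 6, 99625135 to 99666771, minus strand), which encodes an unusual cap-binding relative of eIF4E, had 27.9, 29.0, 26.0 and 31.4 CPM in siErk3 libraries, against 14.5, 14.7, 13.4 and 14.0 CPM in siNTC libraries. It was 2.02 times the siNTC level (log2 fold change 1.02 ± 0.08, adjusted p = 4.34e-10), the largest absolute value among the members. On the same strand its exons overlap those of Gm20696, which was also higher (34.0 CPM in siErk3 against 19.2 CPM in siNTC libraries, log2 fold change 0.82), and 11.5% of the 50-base stretches of Eif4e3 are shared with it, so the counting of reads between the 2 genes is uncertain. Eif4e, the cap-binding subunit of eIF4F (chromosome 3, 138526179 to 138559696, plus strand), had 40.6, 41.1, 39.4 and 40.2 CPM in siErk3 libraries, against 35.6, 35.9, 32.9 and 38.1 CPM in siNTC libraries. The groups did not overlap and Eif4e was called higher (0.18 ± 0.06, adjusted p = 0.0226), but the call was lost without siErk3 replicate 2 (0.0556), without siNTC replicate 3 (0.0653), with DESeq2 (0.0673) and with upper-quartile factors (0.161), all adjusted p-values. Eif4e2, the 4E-HP protein that competes for the cap, had overlapping groups (46.9 ± 4.81 CPM in siErk3 libraries and 46.0 ± 2.21 CPM in siNTC libraries) and was not called. Per length, Eif4e3 stood at 11.4 CPM per kb in siErk3 libraries and Eif4e at 6.71 CPM per kb, against 5.62 for Eif4e3 and 5.93 CPM per kb for Eif4e in siNTC libraries.

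Of the eIF4G scaffolds, Eif4g1, which links eIF4E, eIF4A and eIF3, had 590.5, 552, 573 and 589 CPM in siErk3 libraries, against 653, 624, 663 and 633 CPM in siNTC libraries. It was lower with no overlap (log2 fold change -0.16 ± 0.05, adjusted p = 0.0101), and not called with library sizes only (-0.07). Eif4g2, also called DAP5 and lacking the eIF4E-binding part, was higher, at 777 ± 44.5 CPM in siErk3 libraries and 685 ± 35.9 CPM in siNTC libraries (0.18 ± 0.06, adjusted p = 0.00884), and was not called with upper-quartile factors (0.11). Eif4g3, the third scaffold, did not overlap (58.0 to 62.1 CPM in siErk3 libraries and 62.5 to 65.6 CPM in siNTC libraries) and was not called (-0.10 ± 0.05, adjusted p = 0.126).

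Of the helicase genes and their cofactors, Eif4a2, Eif4b and Eif4h were lower in siErk3 libraries. Eif4b (chromosome 15, 102073773 to 102097173, plus strand), which stimulates eIF4A and is a target of S6 kinase, had 279.7, 272, 274 and 266 CPM in siErk3 libraries, against 399, 425, 427 and 405 CPM in siNTC libraries. Each siErk3 library lay more than 100 CPM under each siNTC library, at 0.659 times the siNTC level (log2 fold change -0.60 ± 0.05, adjusted p = 4.32e-10). Eif4h, a smaller cofactor related to eIF4B, averaged 203 ± 7.19 CPM in siErk3 libraries and 232 ± 8.07 CPM in siNTC libraries and was lower by less (-0.19 ± 0.05, adjusted p = 0.00260), with no call under library sizes only (-0.11). Eif4a2, the second eIF4A helicase (chromosome 16, 23107444 to 23114136, plus strand), had 303, 321, 309 and 328 CPM in siErk3 libraries, against 399.5, 417, 386 and 415 CPM in siNTC libraries, without overlap (-0.36 ± 0.05, adjusted p = 2.36e-06). Eif4a3, the eIF4A of the exon junction complex, was not called (27.9 ± 1.99 CPM in siErk3 libraries and 29.0 ± 3.32 CPM in siNTC libraries). The 11 measured genes grouped with eIF4F and its cofactors include the relatives Eif4a3, Eif4e2, Eif4e3 and Eif4g2, so their tally is not one of the complex itself. Of the 11, 3 were higher (Eif4e, Eif4e3 and Eif4g2), 5 were lower and 3 were not called, with a median log2 fold change of -0.10.

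Eif4a1 itself was called lower by a small margin (128 ± 6.06 CPM in siErk3 libraries and 140.5 ± 6.54 CPM in siNTC libraries; log2 fold change -0.13 ± 0.05, adjusted p = 0.0484), with overlapping groups. Its near-copy Eif4a-ps4 took more reads than the gene. The pseudogene had 2995, 3018, 3048 and 2952 counts in siErk3 libraries and 2980, 3004, 3063 and 3031 counts in siNTC libraries, while Eif4a1 had 1335, 1314, 1232 and 1359 counts in siErk3 libraries and 1340, 1278, 1414 and 1357 counts in siNTC libraries. In CPM, Eif4a-ps4 had 289, 298, 297 and 292 in siErk3 libraries, against 310.4, 310.3, 319.7 and 319 in siNTC libraries, with no overlap and no call (-0.10 ± 0.05, adjusted p = 0.0877). Summed with Eif4a-ps4 and Gm5513, a second pseudogene of shared sequence, Eif4a1 reached 433 ± 6.83 CPM in siErk3 libraries and 465 ± 12.4 CPM in siNTC libraries and was no longer called (-0.10 ± 0.05, adjusted p = 0.0808). The call of Eif4a1 was also lost without siErk3 replicate 1, 2 or 3 and without siNTC replicate 1, 3 or 4 (adjusted p of 0.0671 to 0.178), and with library sizes only, where the log2 fold change was -0.04. As the printed windows show, the rows of Eif4a1 and Eif4a-ps4 cannot be read as separate transcripts from these counts.

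Further coding members share sequence with pseudogenes. The sum with processed pseudogenes could be formed for 11 genes, and the sums left 14 members higher and 11 lower of the 50 rows that remained. The called rows Eif1-ps1, Eif1-ps2 and Eif3s6-ps2 were merged into their genes by the summing. The share of all genes called was not computed for this setting. Eif1, with 11 such pseudogenes, was at -0.29 alone and at -0.36 summed. Eif4e with Gm7327 was at 0.18 alone and at 0.21 summed, and Eif3c with Gm11224 at 0.14 and 0.16. Apart from Eif4a1, no call among the 11 genes changed with the sum.

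**Figure D3:**
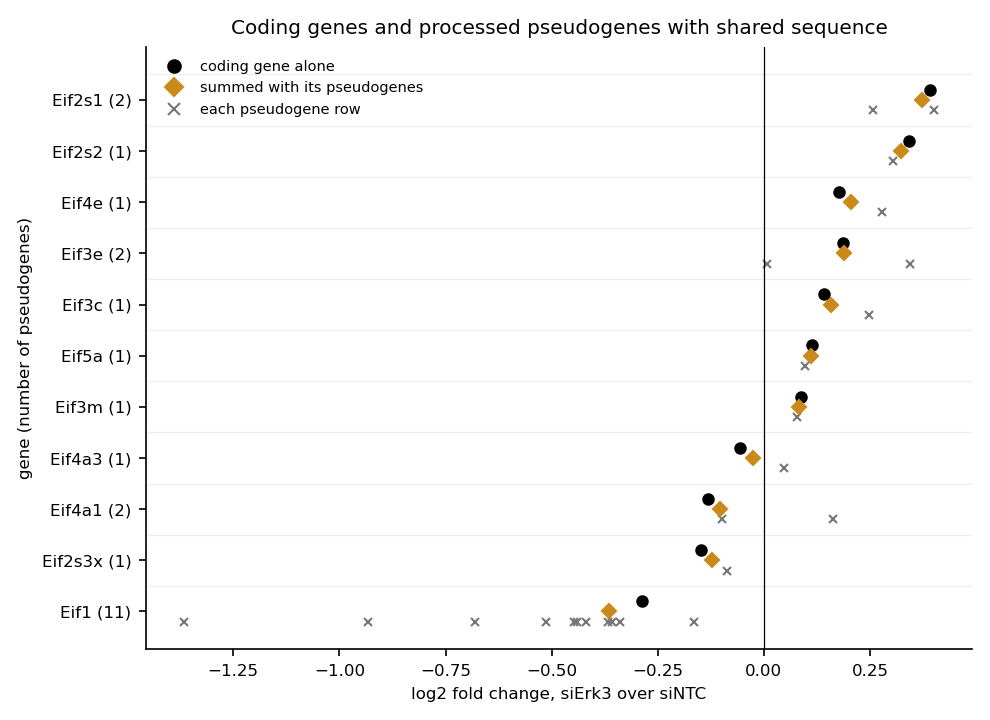
Log2 fold change, siErk3 over siNTC (x axis), of 11 coding genes alone (black circles), summed with the processed pseudogenes that share sequence with them (yellow diamonds; their number in brackets), and of each pseudogene row (grey crosses). The sum stays on the side of 0 of the gene alone for all 11, from -0.36 for Eif1 to 0.37 for Eif2s1.

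Among the factors of start codon selection, Eif1a (chromosome 18, 46597701 to 46616456, plus strand), one of the eIF1A genes, had 83.7, 90.4, 83.5 and 93.4 CPM in siErk3 libraries, against 54.6, 53.4, 47.8 and 53.9 CPM in siNTC libraries. This 1.67-fold difference (log2 fold change 0.74 ± 0.06, adjusted p = 3.82e-10) was the second largest of the members. Eif1ax, the X-linked gene of the same factor, stayed within the spread, at 41.0 ± 1.87 CPM in siErk3 libraries and 39.2 ± 1.41 CPM in siNTC libraries, and was not called. Eif1, which keeps the scanning ribosome open until the start codon is met and has the highest level per length in this group (35.4 CPM per kb in siErk3 libraries and 43.1 CPM per kb in siNTC libraries), had 71.0, 75.5, 73.0 and 77.2 CPM in siErk3 libraries, against 86.1, 83.4, 97.4 and 95.1 CPM in siNTC libraries. It was lower with no overlap (-0.29 ± 0.06, adjusted p = 0.000313). Its paralog Eif1b was not called, nor was Eif1ad, whose groups did not overlap (29.7 ± 1.54 CPM in siErk3 libraries and 27.1 ± 0.213 CPM in siNTC libraries, adjusted p = 0.108) and which shares 13.2% of its 50-base stretches with Banf1. Eif5, the GTPase-activating protein of eIF2, was called higher with overlapping groups (255 ± 15.5 CPM in siErk3 libraries and 229 ± 15.6 CPM in siNTC libraries, 0.15 ± 0.06, adjusted p = 0.0341), a call lost without siErk3 replicate 2 (0.0556), siErk3 replicate 4 (0.143) or siNTC replicate 3 (0.106) and with upper-quartile factors (0.253).

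The 3 measured subunits of eIF2 did not move together. Eif2s1, the alpha subunit that the eIF2 kinases phosphorylate (chromosome 12, 78861819 to 78887010, plus strand), had 57.2, 53.2, 48.0 and 53.6 CPM in siErk3 libraries, against 39.2, 41.2, 38.4 and 42.8 CPM in siNTC libraries. It was 1.31 times the siNTC level with no overlap (log2 fold change 0.39 ± 0.06, adjusted p = 2.07e-05). Eif2s2, the beta subunit, averaged 60.2 ± 6.03 CPM in siErk3 libraries and 47.5 ± 8.58 CPM in siNTC libraries, where siNTC replicate 3 was lowest at 35.3 CPM (0.34 ± 0.09, adjusted p = 0.00445). It was at 0.22 and still called without that library, and was not called by DESeq2 (0.0647). Eif2s3x, the X-linked gamma subunit, had 37.7, 38.0, 33.6 and 37.4 CPM in siErk3 libraries and 41.1, 42.5, 36.3 and 42.6 CPM in siNTC libraries, with overlap at siNTC replicate 3 and no call (-0.15 ± 0.07, adjusted p = 0.0752), although it was called lower without that library (-0.20, adjusted p = 0.0144). All 50-base stretches of its pseudogene Gm2223 also occur in Eif2s3x. Gm2223 had 27.9 CPM in siErk3 libraries and 29.7 CPM in siNTC libraries. Gm9892, a pseudogene with 73.5% of its stretches in Eif2s2, had more than Eif2s2, at 66.5 CPM in siErk3 libraries and 53.9 CPM in siNTC libraries. Per length, the rows of the 3 subunits lay at 8.92 to 10.7 CPM per kb in siErk3 libraries and 7.03 to 10.7 CPM per kb in siNTC libraries. These levels leave out the pseudogene rows, so how near the subunits stand to each other is uncertain.

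In eIF2B, the exchange factor of eIF2, 1 of 5 subunits was higher, 2 were lower and 2 were not called. Eif2b2 (beta) averaged 25.8 ± 1.64 CPM in siErk3 libraries and 20.3 ± 1.19 CPM in siNTC libraries, with no overlap (0.34 ± 0.08, adjusted p = 0.000838). Eif2b3 (gamma) averaged 14.7 ± 1.25 CPM in siErk3 libraries and 18.2 ± 1.62 CPM in siNTC libraries (-0.30 ± 0.09, adjusted p = 0.00887), and Eif2b1 (alpha) averaged 29.95 ± 1.01 CPM in siErk3 libraries and 35.4 ± 1.48 CPM in siNTC libraries (-0.24 ± 0.06, adjusted p = 0.00372). Both lower subunits kept non-overlapping groups but missed the threshold with library sizes only (adjusted p of 0.0536 for Eif2b3 and 0.0524 for Eif2b1). Eif2b5, the catalytic epsilon subunit and the highest of the 5 per length, had 51.5, 59.7, 59.7 and 57.4 CPM in siErk3 libraries and 59.0, 59.0, 66.5 and 60.7 CPM in siNTC libraries, which overlap, and was not called (-0.10 ± 0.06). Eif2b4 (delta) was not called. The alternative tRNA carriers Eif2a and Eif2d were not called, Eif2a at 31.6, 35.3, 30.3 and 34.6 CPM in siErk3 libraries and 31.6, 35.0, 29.6 and 29.98 CPM in siNTC libraries.

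Of the 14 genes of eIF3, 5 were higher, 2 were lower and 7 were not called, with a median log2 fold change of 0.06. Eif3a (chromosome 19, 60761117 to 60790658, minus strand), the largest scaffold subunit, had 200.4, 179, 188 and 209.6 CPM in siErk3 libraries, against 284, 319, 220.3 and 262 CPM in siNTC libraries. It was 0.716 times the siNTC level (-0.48 ± 0.08, adjusted p = 2.15e-05), and the siNTC libraries spread more widely (SD 41.3 CPM) than the siErk3 libraries (SD 13.4 CPM). Eif3l (chromosome 15, 79075179 to 79094405, plus strand), a peripheral subunit that pairs with Eif3k, had 91.7, 94.3, 95.5 and 99.9 CPM in siErk3 libraries, against 118, 125, 133 and 134 CPM in siNTC libraries, without overlap (-0.42 ± 0.06, adjusted p = 1.14e-06). Its partner Eif3k was called higher, at 41.5 ± 1.16 CPM in siErk3 libraries and 37.1 ± 1.74 CPM in siNTC libraries (0.16 ± 0.06, adjusted p = 0.0349), a call that did not hold under 8 of 16 alternatives, namely upper-quartile factors, DESeq2 (0.0986) and leaving out siErk3 replicate 2, 3 or 4 or siNTC replicate 1, 2 or 4 (adjusted p of 0.0569 to 0.101).

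The other higher subunits of eIF3 changed by small amounts. Eif3f averaged 138 ± 12.4 CPM in siErk3 libraries and 118 ± 7.38 CPM in siNTC libraries (0.22 ± 0.06, adjusted p = 0.00561), and its groups overlap because siErk3 replicate 1 had 119 CPM. Eif3d, which can bind the cap of some mRNAs, averaged 78.6 ± 1.27 CPM in siErk3 libraries and 69.0 ± 3.30 CPM in siNTC libraries (0.19 ± 0.05, adjusted p = 0.00613), but 37.2% of its 50-base stretches are shared with the antisense gene Gm17638, and the library kit does not mark the strand. Eif3e averaged 84.7 ± 4.53 CPM in siErk3 libraries and 74.4 ± 6.55 CPM in siNTC libraries (0.19 ± 0.06, adjusted p = 0.0182), not called without siErk3 replicate 2 (0.0675), siErk3 replicate 4 (0.0516) or siNTC replicate 3 (0.0670). Eif3c averaged 161 ± 3.50 CPM in siErk3 libraries and 146 ± 1.92 CPM in siNTC libraries (0.14 ± 0.05, adjusted p = 0.0197), not called without siErk3 replicate 3 (0.0551). With upper-quartile factors Eif3c, Eif3d, Eif3e and Eif3k were all not called (0.07 to 0.12 in log2 fold change).

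The uncalled eIF3 genes were Eif3b, Eif3g, Eif3h, Eif3i, Eif3j1, Eif3j2 and Eif3m. Eif3h, the highest of eIF3 per length, had 96.0, 95.1, 100.4 and 98.01 CPM in siErk3 libraries and 88.8, 95.4, 111 and 94.8 CPM in siNTC libraries, so the means nearly coincide, at 97.4 CPM in siErk3 libraries and 97.5 CPM in siNTC libraries. The paralogs Eif3j1 and Eif3j2 cannot be separated well, since 90.8% of the 50-base stretches of Eif3j2 occur in Eif3j1. Eif3m shares 17.2% of its stretches with the pseudogene Gm7658.

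**Figure D4:**
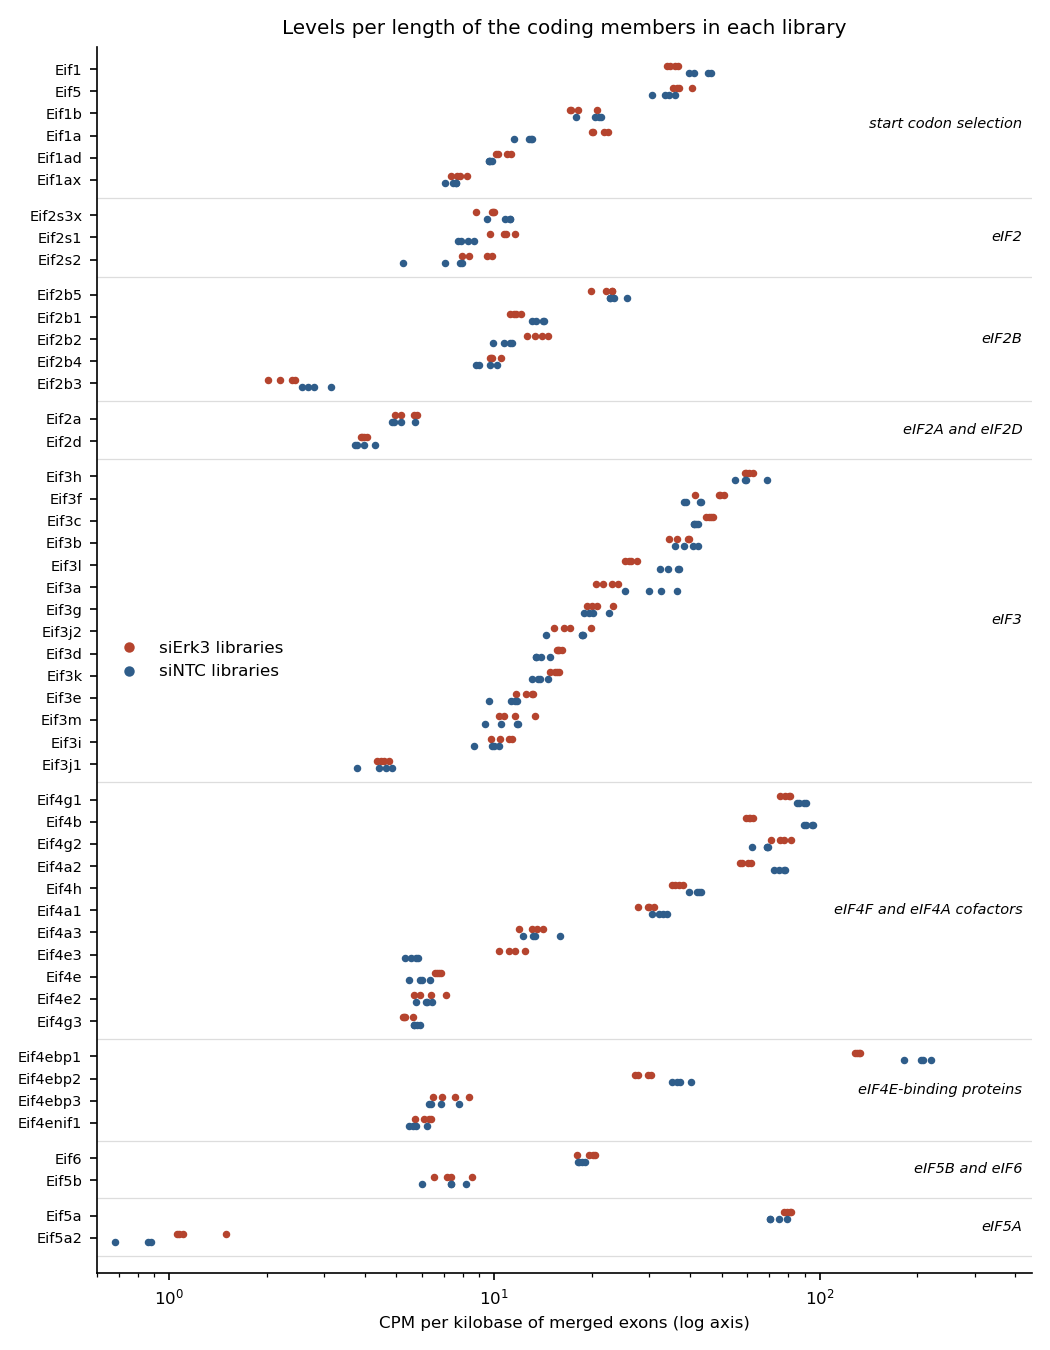
CPM per kilobase of merged exons (x axis, log scale) of the 49 coding members in each siErk3 library (red) and siNTC library (blue), grouped by complex and ordered by level within it. Mean levels over all 8 libraries run from 0.965 CPM per kb for Eif5a2 to 168 CPM per kb for Eif4ebp1.

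Of the remaining factors, Eif5a2 (chromosome 3, 28781276 to 28798846, plus strand), the minor gene of eIF5A, had 5.41, 5.33, 5.55 and 7.52 CPM in siErk3 libraries, against 3.44, 4.34, 2.82 and 4.42 CPM in siNTC libraries. The groups do not overlap, siErk3 replicate 4 stands above the other 3, and the log2 fold change was 0.66 ± 0.17 (adjusted p = 0.00256) at a mean count of 48.4, the lowest of the members. Eif5a, the major gene, whose protein carries the modified lysine hypusine and which had 79.98 CPM per kb in siErk3 libraries and 73.9 CPM per kb in siNTC libraries, had 189, 185, 194 and 193 CPM in siErk3 libraries and 167, 167, 189 and 179 CPM in siNTC libraries. It was not called (0.11 ± 0.05, adjusted p = 0.0780), but was called higher without siNTC replicate 3 (0.15, adjusted p = 0.0143) and with library sizes only (0.20). Eif6, which keeps the large subunit from joining, had 55.3, 48.5, 52.9 and 54.2 CPM in siErk3 libraries and 51.3, 50.4, 49.1 and 48.8 CPM in siNTC libraries and was not called (0.08 ± 0.06). Eif5b, the GTPase of subunit joining, was not called and shares 14.3% of its stretches with Rev1 on the opposite strand.

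The pseudogene rows other than Eif4a-ps4 were Eif1-ps1, Eif1-ps2, Eif3s6-ps1, Eif3s6-ps2, Eif3s6-ps4 and Eif5al3-ps. Eif1-ps1 had 9.47, 9.97, 7.88 and 11.3 CPM in siErk3 libraries, against 14.9, 13.3, 14.6 and 12.2 CPM in siNTC libraries (-0.51 ± 0.11, adjusted p = 0.000613). It was lower, as Eif1 was, and 33.5% of its 50-base stretches occur in Eif1. Eif1-ps2 was also lower, with overlap (-0.34 ± 0.13, adjusted p = 0.0328), and lost the call without siErk3 replicate 1 or 3 and without siNTC replicate 2 or 3 (adjusted p of 0.0517 to 0.144), with library sizes only and by DESeq2 (0.0600). Eif3s6-ps2, a copy of Eif3e, had 27.1, 27.3, 29.2 and 36.6 CPM in siErk3 libraries, against 25.0, 25.3, 20.7 and 23.7 CPM in siNTC libraries (0.34 ± 0.09, adjusted p = 0.00379). It shares 18.6% of its stretches with Eif3e. Eif3s6-ps1, Eif3s6-ps4, Eif5al3-ps and Eif4a-ps4 were not called.

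Ratios of 2 members within a library do not depend on the scaling between libraries. Over 14 pairs of paralogs and partners, 9 ratios (64.3%) did not overlap between the groups, 5 higher and 4 lower in siErk3 libraries, beside 42.8% of the ratios over all pairs of tested genes whose counts average 10 or more. The 14 ratios share genes, with Eif4e in 4 of them and in 3 of the 9, so the count is not one of separate measurements. Each of the 9 had the smallest p that an exact two-sided permutation test of 4 against 4 libraries allows (0.029, adjusted over the 14 ratios 0.0444). The count of Eif4ebp1 over that of Eif4e was 7.21, 6.89, 7.38 and 7.12 in siErk3 libraries, against 12.6, 11.1, 14.7 and 11.96 in siNTC libraries. The count of this repressor gene relative to the cap-binding gene was smaller in every siErk3 library, at 0.569 times the siNTC ratio. Counts are not corrected for gene length, so the ratio compares the groups and does not give an excess of one mRNA over the other. Eif4ebp2 over Eif4e was 3.85, 4.19, 4.43 and 4.00 in siErk3 libraries, against 5.92, 5.67, 7.07 and 5.66 in siNTC libraries. Between the 2 repressors, Eif4ebp1 over Eif4ebp2 had geometric means of 1.74 in siErk3 libraries and 2.07 in siNTC libraries, so Eif4ebp1 was the more strongly lowered.

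Among paralogs, Eif4e3 over Eif4e was 0.688, 0.707, 0.659 and 0.781 in siErk3 libraries, against 0.406, 0.408, 0.406 and 0.367 in siNTC libraries. Eif1a over Eif1ax was 2.06, 2.33, 2.02 and 2.16 in siErk3 libraries, against 1.39, 1.33, 1.29 and 1.34 in siNTC libraries. Eif4g2 over Eif4g1 had geometric means of 1.35 in siErk3 libraries and 1.06 in siNTC libraries, Eif4h over Eif4b of 0.743 in siErk3 libraries and 0.560 in siNTC libraries, and Eif5a2 over Eif5a of 0.0310 in siErk3 libraries and 0.0210 in siNTC libraries. These 3 were higher in siErk3 libraries without overlap. Eif4a2 over Eif4a1 was lower, with geometric means of 2.46 in siErk3 libraries and 2.88 in siNTC libraries. With the counts of Eif4a-ps4 added to those of Eif4a1 this last ratio was 0.724, 0.750, 0.741 and 0.769 in siErk3 libraries, against 0.888, 0.942, 0.825 and 0.899 in siNTC libraries, still without overlap. The 5 ratios that overlapped were Eif1/Eif1b, Eif3j1/Eif3j2, Eif4e2/Eif4e, Eif4g3/Eif4g1 and Eif5b/Eif5, with exact p of 0.143 to 0.400.

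**Figure D5:**
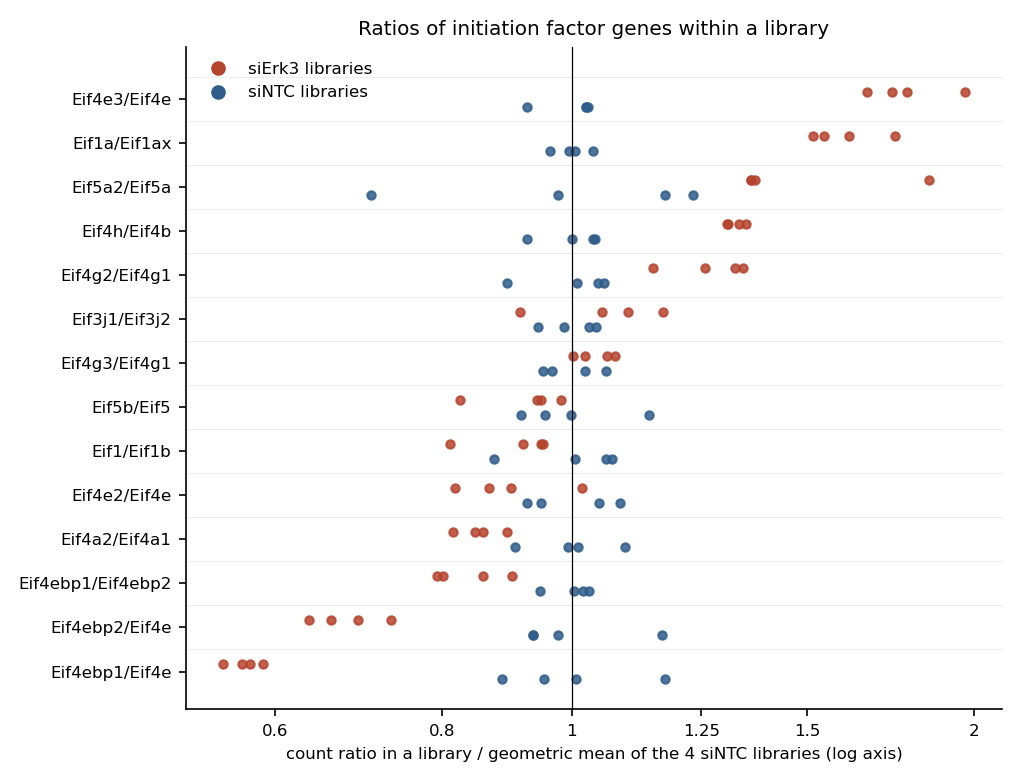
Count ratio of each of 14 gene pairs in each siErk3 library (red, upper row) and siNTC library (blue, lower row), divided by the geometric mean of the 4 siNTC libraries (x axis, log scale). The siErk3 points of Eif4ebp1/Eif4e lie lowest, at 0.569 times the siNTC mean on average, and those of Eif4e3/Eif4e highest, at 1.78 times.

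The genes that act on the initiation factors were examined as lists, described by their calls beside the same background of 24.9% higher and 23.8% lower. Of 10 eIF2 kinase, phosphatase and related genes, 3 were higher, 2 were lower and 5 were not called. The related gene is Impact, which encodes a regulator of the kinase made from Eif2ak4 and was higher (0.19). Eif2ak2, the double-stranded RNA sensor PKR and itself an interferon-stimulated gene, was higher by far, at 157 CPM in siErk3 libraries and 33.3 CPM in siNTC libraries (log2 fold change 2.23 ± 0.06, adjusted p = 9.17e-19). Eif2ak3 (PERK) was lower at 25.5 CPM in siErk3 against 32.4 CPM in siNTC libraries (-0.34). Ppp1r15b, the constitutive partner of the eIF2 phosphatase, was also lower, at 158 CPM in siErk3 against 192 CPM in siNTC libraries (-0.28). The gene of the other partner, Ppp1r15a, went the other way and was higher, at 32.4 CPM in siErk3 against 28.1 CPM in siNTC libraries (0.21). Eif2ak4 (GCN2) and Eif2ak1 (HRI) were not called, at 0.01 and -0.01. Of 13 genes of mTORC1 signaling to the 4E-BPs, 4 were higher, 2 were lower and 7 were not called, among them Mtor (-0.02) and Mlst8 (-0.02). Tsc1, an mTORC1 inhibitor, was higher (67.4 CPM in siErk3 against 48.5 CPM in siNTC libraries, 0.47 ± 0.06), and so was Rheb, the GTPase that activates mTORC1 (105 CPM in siErk3 against 87.6 CPM in siNTC libraries, 0.26), while Deptor, an inhibitory subunit, was lower (146 CPM in siErk3 against 182 CPM in siNTC libraries, -0.32). Of 7 MAP kinase genes upstream of eIF4E, 2 were higher (Rps6ka1, 0.28, and Mapk14, 0.16) and 5 were not called, among them the eIF4E kinase genes Mknk1 (0.14) and Mknk2 (-0.05).

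Of 8 elongation genes measured, 1 was higher, 5 were lower and 2 were not called, with a median log2 fold change of -0.29 beside 0.00 over all genes tested. Eef1g had 139 CPM in siErk3 libraries and 203 CPM in siNTC libraries (-0.54 ± 0.05), Eef1a1, the carrier of aminoacyl-tRNA, had 1638 CPM in siErk3 libraries and 2373 CPM in siNTC libraries (-0.53 ± 0.05), and Eef2, the translocase, had 1285 CPM in siErk3 libraries and 1827 CPM in siNTC libraries (-0.51 ± 0.05). The 1 higher gene, named after its value was seen, was Eefsec (0.26). Of 9 genes of the poly(A)-binding closed loop, 2 were higher and 2 were lower, led by Pabpc4 (53.0 CPM in siErk3 against 79.1 CPM in siNTC libraries, -0.58), Paip1 (42.3 CPM in siErk3 against 31.2 CPM in siNTC libraries, 0.44) and Pabpc1 (326 CPM in siErk3 against 392 CPM in siNTC libraries, -0.27). Of 9 termination and recycling genes, 2 were higher and 3 were lower, with Gspt2 (0.44), Mcts1 (-0.33) and Denr (-0.25) changing most. Both mitochondrial initiation factors were lower, Mtif2 at -0.39 and Mtif3 at -0.23. Of the hypusine enzymes, Dhps was higher (0.19, adjusted p = 0.0463), and the 2 rows of Dohh were not called.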

How the data were processed

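RNA-seq of 8 libraries (4 siErk3, 4 siNTC) was analysed. The authors deposited raw counts per gene (18088 genes, all of which passed 1 CPM in 4 libraries or more), and a table of their own edgeR comparison, with fold changes and p-values, was not used. The submitters' processing notes name bcl2fastq, FastQC, Bowtie2, edgeR and build mm10, and the counting program and annotation are not given in the sources used here. Counts were fitted in R 4.3.3 with edgeR 4.0.16 (filterByExpr, minimum count 10, TMM, quasi-likelihood test, Benjamini-Hochberg over 17972 genes). The fit was tried on simulated data in which a small part of the genes was changed, in both directions. That trial does not cover the broad changes of these libraries or the choice of scaling. The SE is the absolute log2 fold change over the square root of F. Alternatives were RLE, upper-quartile and no factors, DESeq2 1.42.0, other filters, a replicate block, each library left out, and, added after seeing the data, counts summed with processed pseudogenes having at least 10% of their 50-base stretches in the gene. Coordinates and exons are from GENCODE M21. Ratios used exact permutation tests (scipy 1.17.1).

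Members and lists were chosen with earlier results of these data known. Every member is accounted for, with values per library for the called members with the 12 largest absolute log2 fold changes, the 4E-BP genes and the member highest per length in each complex. At most 3 called genes and 2 others are named per pathway list, besides Impact, named because it is neither a kinase nor a phosphatase gene. Ppp1r15a is named as well, after its value was seen, because it moved opposite to Ppp1r15b. Genes named for sharing sequence or for lost calls were chosen after their values were seen.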

Additional observations from a re-analysis of the deposited data

Results flagged for a closer look

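Within a group of 4 libraries, 6 of 112 groups examined (56 members in 2 groups) had 1 library that stood apart by Dixon's test at the 95% level, and chance gives this for about 1 group in 20. siErk3 replicate 4 was highest for Eif5a2 (7.52 CPM, the others 5.33 to 5.55) and for Eif2b4 (27.2 CPM, the others 25.2 to 25.5). siErk3 replicate 3 was lowest for Eif2s3x (33.6 CPM, the others 37.4 to 38.0). siNTC replicate 3 was lowest for Eif3j2 (34.3 CPM, the others 44.2 to 44.5), for Eif4g2 (631 CPM, the others 701 to 705) and for Eif3s6-ps1 (18.2 CPM, the others 22.0 to 22.4). Eif5a2 was at 0.53 and Eif4g2 at 0.14 in log2 fold change without that library, and both were still called.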

How the results depend on the processing

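Of the 29 called members, 15 (7 higher and 8 lower) kept their call under every alternative computed for them, 14 lost it under at least 1, and none reversed. The 15 include Eif4ebp1, Eif4ebp2, Eif4b, Eif4a2, Eif3a, Eif3l, Eif1, Eif4e3, Eif1a, Eif5a2 and Eif2s1. With upper-quartile factors 8 members were higher, and with library sizes only 8 were lower, and the median log2 fold change of all genes under these settings was -0.07 and 0.09. Among the 29, 7 calls were lost with upper-quartile factors, 6 with library sizes only, 4 with DESeq2 and 1 with the pseudogene sums. Leaving out 1 library gave 11 to 16 members higher and 12 to 14 lower, and cost 2 to 5 calls each, from 7 genes in all. Over the 18037 to 18048 genes tested in these fits, 4117 to 4350 were higher and 3839 to 4131 were lower. The number of ratios without overlap was 8 to 10 under every setting tried. Only some of the 27 uncalled members were followed singly under the alternatives, and others near 0, such as Eif2d (0.00), were not. Among those followed, the value changed sign for Eif2a with upper-quartile factors (-0.0080). For Eif3h it changed sign with library sizes only (0.085), with the replicate block (0.0013) and without siErk3 replicate 1, siErk3 replicate 2 or siNTC replicate 3. Eif3h ran from -0.044 to 0.066 over all 8 libraries left out in turn. The cause was not tested. With the replicate number as a block, 15 members were higher and 14 lower (4501 and 4292 of all genes). Deviations of same-numbered libraries correlated at -0.02 to 0.06, and those of different numbers at -0.10 to 0.06, so no shared effect of the numbers was seen. Whether the libraries were paired by culture or transfection cannot be read from this. Counting error limits Eif5a2 and Eif4ebp3 most, the members with the lowest counts.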
